A study of Homo sapiens with 4 samples.

Results

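The genes described here are 58 genes of mitosis and the mitotic spindle, taken by symbol from a list that was drawn up with earlier results of these data known, out of 55765 gene symbols in the deposited count table. All 58 were found in the table and all 58 passed the filter on low counts. RNA came from SK-N-BE(2)C, a human neuroblastoma cell line with amplified MYCN. Both groups were grown in RPMI1640 medium with fetal calf serum, penicillin and streptomycin, and differed in what was added for 144 h: 10 µM all-trans retinoic acid (ATRA), which drives neuroblastoma cells toward a neuron-like state, or ethanol, in which ATRA is dissolved. There were 2 libraries per group, called ATRA 1, ATRA 2, ethanol 1 and ethanol 2 (the titles number the second of each group, and the unnumbered one was taken as 1), with total counts from 12850462 to 19883465. Nothing in the labels tells separate cultures from repeat libraries of 1 culture, so each p-value measures only how these libraries vary, which may be technical variation. All libraries came from 1 cell line.

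Cells enter mitosis when cyclin B and CDK1 become active, and they leave it when the anaphase-promoting complex marks cyclin B and securin for destruction. Between these points condensin packs the chromosomes, kinetochores attach them to spindle microtubules, and the spindle checkpoint holds the cell until every chromosome is attached. Most of the mRNAs involved are made in G2 and M and are scarce in cells that do not divide. Their promoters are held silent outside these phases by the DREAM complex and are driven by B-MYB and FOXM1, which share with DREAM the MuvB core that binds the cell cycle genes homology region (CHR), while NF-Y binds nearby CCAAT boxes.

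RNA of the mitotic genes was lower with ATRA. Summed over the 58 genes, the level was 2292 and 4683 CPM (read counts scaled to a common library size, with TMM factors) in ATRA 1 and ATRA 2, and 7016 and 9725 CPM in ethanol 1 and ethanol 2. Both ATRA libraries lay below both ethanol libraries. The mean was 3487 ± 1691 CPM with ATRA and 8370.3 ± 1916 CPM with ethanol (SD, n = 2 each), so that ATRA cells held 41.7% of the ethanol level. When 1 library was left out, this share was lowest without ATRA 2, at 27.1%, and highest without ATRA 1. Of the 58 genes, 57 had both ATRA libraries below both ethanol libraries, where 21.7% of the 18900 genes tested did. The exception was BUB3. In bulk RNA, fewer dividing cells and less of these mRNAs per dividing cell cannot be told apart.

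No single gene of the set passed the test across all genes. With edgeR's quasi-likelihood test, adjusted by Benjamini-Hochberg over all genes with a threshold of 0.05, 0 of 58 were called, where 0.698% of all genes were (132, of them 29 lower with ATRA, or 0.153%, and 103 higher, or 0.545%). Adjusted p in the set ran from 0.0704 (PLK1) to 0.704 (BUB3), edgeR quasi-likelihood. At an unadjusted p under 0.05, 49 of the 58 were lower and 0 higher, against 6.49% of all genes that were lower at that p and 15.9% in either direction. DESeq2 called 29 of the 58, all lower, and limma-voom called 0. Of all genes tested, DESeq2 called 2.89% lower with ATRA (7.92% in either direction). The shares with limma-voom were 0.037% and 0.265%. When edgeR was fitted on every gene with at least 1 count, in place of those past the filter, 54 of the 58 were called, all lower (1.86% of all genes in that fit were called lower). The median log2 fold change of the 58 genes was -1.28, beside 0.01 over all genes tested. The values lay close together across genes, which share the same libraries, so this spread does not measure the uncertainty of the fall. The median itself moved between -1.90 (without ATRA 2) and -0.89 (without ATRA 1) when 1 library was left out. The middle of the set, between its quartiles, lay from -1.39 to -1.15, which is 38.3% to 45.0% of the ethanol level, and 55 of the 58 genes were below a log2 fold change of -1, as were 7.63% of all genes.

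Calls in the set depended on single libraries. Without ATRA 1, AURKB alone was called (1 gene), and without ethanol 2 the calls were PLK1, AURKB and NCAPG (3 genes). Without ATRA 2 there were 54 calls and without ethanol 1 there were 35 (edgeR quasi-likelihood), all lower with ATRA. Calls lower with ATRA made up 1.11%, 1.91%, 2.92% and 1.67% of all genes tested in these 4 fits, in the order given. ATRA 1 was the lowest library for 58 of 58 genes, while it was the lowest for 26.8% of all genes tested. Ethanol 2 was the highest for 54, and 53 genes shared the order ATRA 1, ATRA 2, ethanol 1, ethanol 2. These counts have no share over all genes beside them, so a trait of the set cannot be told from one of the libraries.

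The libraries differed in other measures too. The share of counts from mitochondrial rRNA was 2.49% in ATRA 1 and 5.96% in ethanol 1, and only 0.130% in ATRA 2 and 0.0291% in ethanol 2, so libraries of the same number resemble each other in this respect. Differences were therefore also taken between libraries of the same number. All 58 genes were lower with ATRA within both numbers, as were 35.3% of all genes. The median log2 difference was -1.63 between ATRA 1 and ethanol 1, and -1.03 between ATRA 2 and ethanol 2. The labelled cell type was checked on 9 neuroblastoma markers, which were all detected. Summed, they had 3665 and 2922 CPM with ATRA and 5247 and 4293 CPM with ethanol. Of 11 markers of other cell types found in the table, 7 passed the filter. Of these, 4 were higher with ATRA at an unadjusted p under 0.05 (0 passed edgeR's adjusted test), as were 1783 of 18900 genes tested. Summed, these markers had 48.7 and 28.6 CPM with ATRA and 6.47 and 8.23 CPM with ethanol; CD68 and KRT5 had 0 reads in every library and CD3E had 1 read in all. Their part in the result was not tested.

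**Figure D1:**
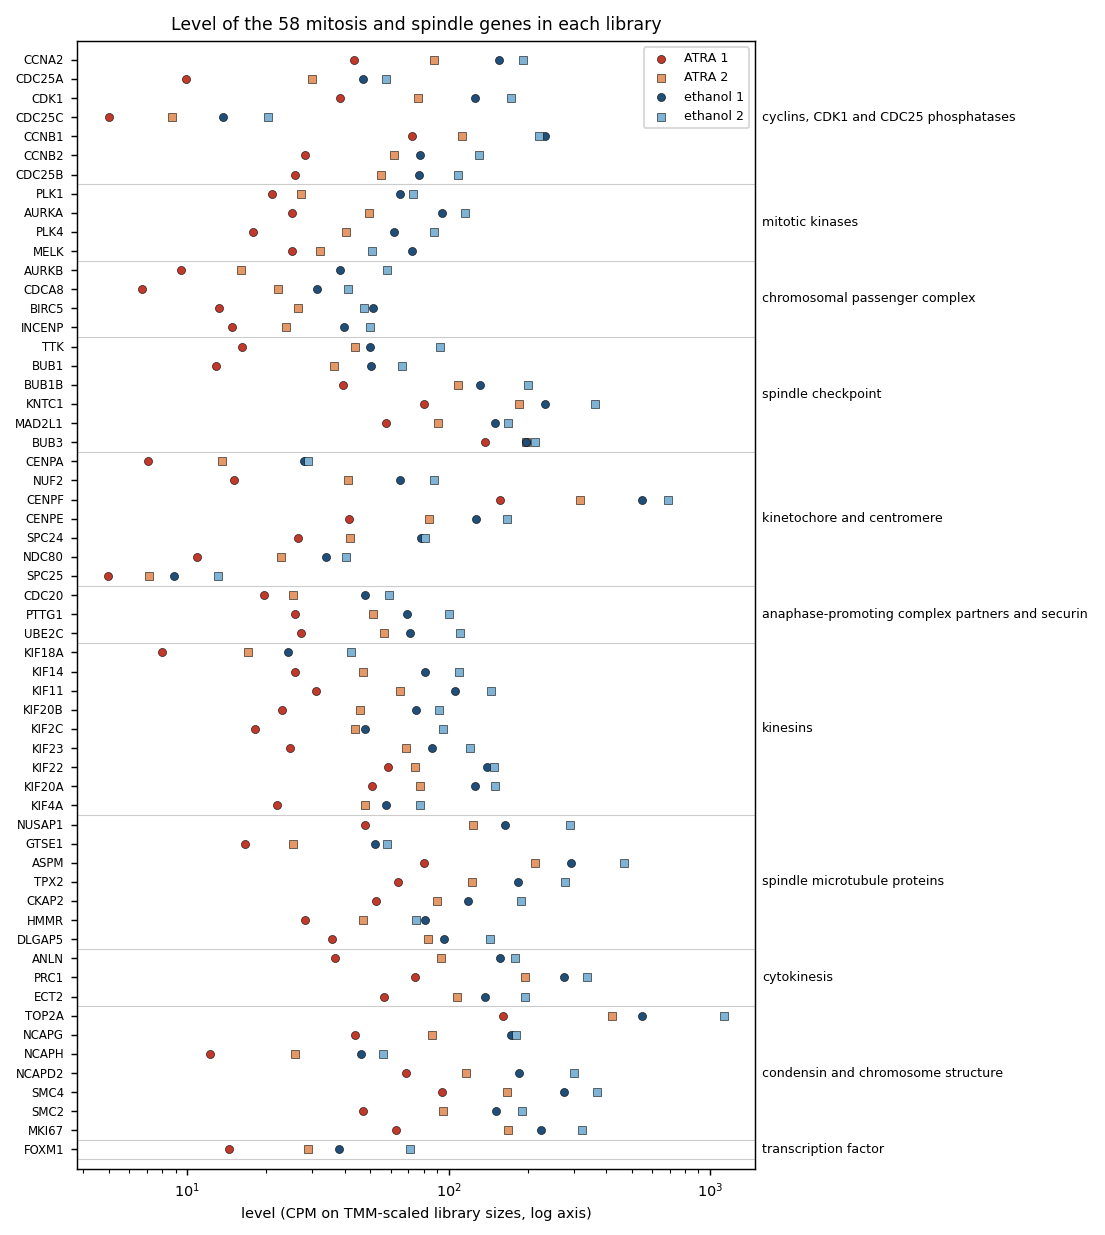
Level of each of the 58 genes in the 4 libraries, in CPM on a log axis, with genes grouped by role and ordered by fold change within a role. Red and orange points are ATRA 1 and ATRA 2, dark and light blue points are ethanol 1 and ethanol 2; ATRA 1 is the lowest point in all 58 lines, and the groups overlap in BUB3 alone.

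**Figure D2:**
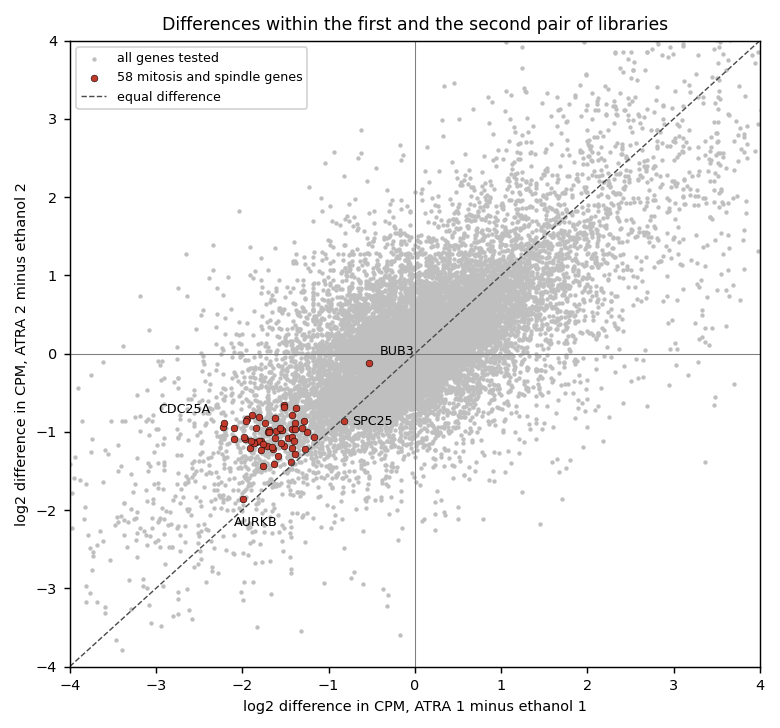
Log2 difference in CPM between ATRA 1 and ethanol 1 (x axis) and between ATRA 2 and ethanol 2 (y axis), for all genes tested (grey, axes cover 4 log2 units on either side of 0) and the 58 mitotic genes (red). All 58 red points lie below 0 on both axes, and 57 lie above the dashed line of equal differences, which means a larger difference between the first 2 libraries.

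Promoter sequences are shown because the CHR and CCAAT boxes are the known G2/M elements. The set was chosen as genes of mitosis, so its shares of matches describe that choice and do not test a response to ATRA. RefSeq promoter windows, from 250 bases before to 50 bases after the start site on GRCh38.p14, were found for 50 of the 58 genes. The other 8 are AURKA, BIRC5, BUB3, TTK, KNTC1, UBE2C, TPX2 and FOXM1. Both strands were searched for TTTGAA or TTCGAA (CHR) and for CCAAT, with overlaps allowed. The 4 windows shown, here cut at 30 bases after the start, are those of the first genes with a CHR match in a fixed order of well-known mitotic genes. They lie at chr10:60778228-60778507 for CDK1, chr16:23678639-23678918 for PLK1, chr15:59104896-59105175 for CCNB2, chr1:43358731-43359010 for CDC20, all on the + strand. Matches are in capitals: TTTGAA (or TTCAAA on the other strand) is a CHR match, and CCAAT (or ATTGG on the other strand) is a CCAAT match.
CDK1: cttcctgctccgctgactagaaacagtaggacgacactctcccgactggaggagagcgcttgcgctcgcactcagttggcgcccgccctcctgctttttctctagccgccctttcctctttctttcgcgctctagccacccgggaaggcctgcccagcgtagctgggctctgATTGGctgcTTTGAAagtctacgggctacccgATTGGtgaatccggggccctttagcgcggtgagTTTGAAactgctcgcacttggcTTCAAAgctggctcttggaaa
PLK1: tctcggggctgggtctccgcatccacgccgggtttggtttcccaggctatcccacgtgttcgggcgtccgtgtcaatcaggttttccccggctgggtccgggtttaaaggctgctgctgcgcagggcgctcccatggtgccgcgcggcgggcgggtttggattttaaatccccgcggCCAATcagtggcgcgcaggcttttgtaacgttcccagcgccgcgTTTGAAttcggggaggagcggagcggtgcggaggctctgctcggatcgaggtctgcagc
CCNB2: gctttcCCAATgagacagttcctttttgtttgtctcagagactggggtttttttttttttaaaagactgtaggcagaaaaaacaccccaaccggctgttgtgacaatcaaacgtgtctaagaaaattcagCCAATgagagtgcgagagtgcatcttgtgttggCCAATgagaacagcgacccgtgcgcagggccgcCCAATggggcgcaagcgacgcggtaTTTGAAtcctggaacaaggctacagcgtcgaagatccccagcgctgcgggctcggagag
CDC20: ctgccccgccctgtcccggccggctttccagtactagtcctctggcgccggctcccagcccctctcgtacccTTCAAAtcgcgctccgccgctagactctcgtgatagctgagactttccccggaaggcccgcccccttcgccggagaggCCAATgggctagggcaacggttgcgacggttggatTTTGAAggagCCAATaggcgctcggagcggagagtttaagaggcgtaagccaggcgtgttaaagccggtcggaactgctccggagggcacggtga

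A CHR match was found in 34 of the 50 windows (68%) and in 16.4% of all 35116 promoters of the same length. CCAAT matches were found in 36 (72%), and in 34.6% of all promoters. Both kinds stood together in 27 windows (54%), against 6.38% of all. The matches were not spread evenly. Between -50 and 0 bases from the start site, 19 of the 50 windows (38%) had the start of a CHR match, and 2.73% of all promoters did. Between -100 and -50, 28 windows (56%) had a CCAAT match, and 12.9% of all promoters did. The fold change differed little with these letters. Median log2 fold changes were -1.30 in the 27 genes with both, -1.17 in the 7 with CHR alone, -1.36 in the 9 with CCAAT alone and -1.21 in the 7 with neither, and the ranges of the 4 classes overlapped. A match is a description of the sequence and not evidence of binding.

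**Figure D3:**
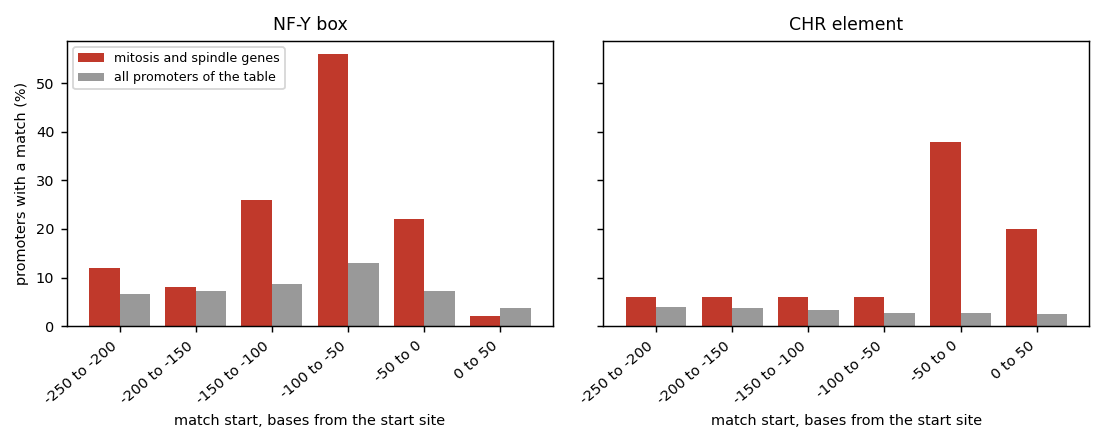
Percentage of promoters with a match that starts in each 50-base bin (x axis, bases from the start site), for an NF-Y (CCAAT) box on the left and a CHR element on the right. Red bars are the 50 promoters of the mitotic genes and grey bars all 35116 promoters; the red bars peak at 56% between -100 and -50 for NF-Y and at 38% between -50 and 0 for CHR.

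Summed by role, the ATRA level as a share of ethanol ran from 37.1% for the chromosomal passenger complex to 52.4% for the spindle checkpoint, which includes BUB3. Entry into mitosis is driven by cyclins, CDK1 and the CDC25 phosphatases that activate it. CCNB1, cyclin B1, had 71.9 and 113 CPM with ATRA against 233 and 222 CPM with ethanol (log2 fold change -1.30 ± 0.30, SE). CCNA2, cyclin A2, had 43.4 and 87.8 CPM with ATRA against 155 and 191 CPM with ethanol (-1.40 ± 0.38). CDK1, the kinase itself, had 38.3 and 76.3 CPM with ATRA against 126 and 173 CPM with ethanol (-1.39 ± 0.39). Each of these had both ATRA libraries below both ethanol libraries, and CCNB1 was the most even between the ethanol libraries. CDC25A, a phosphatase that also acts earlier in the cycle, had 9.89 and 29.9 CPM with ATRA against 46.7 and 57.3 CPM with ethanol (-1.39 ± 0.52), and its level in ATRA 1 was far below that in ATRA 2. CCNB2, CDC25B and CDC25C were at -1.22, -1.20 and -1.30. Adjusted p was 0.114 to 0.274 for these 7 genes (edgeR quasi-likelihood), and groups did not overlap in any of the 7. Over all genes tested, 21.7% had both ATRA libraries below both ethanol libraries.

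Among the mitotic kinases, PLK1, which acts in centrosome maturation, kinetochore attachment and cytokinesis, had 20.998 and 27.3 CPM with ATRA against 65.1 and 72.6 CPM with ethanol (-1.51 ± 0.26). This was the smallest adjusted p of the set, 0.0704 (edgeR quasi-likelihood), with libraries of each group close together. AURKA, the kinase of spindle poles, had 25.1 and 49.6 CPM with ATRA against 94.2 and 115 CPM with ethanol (-1.48 ± 0.38). PLK4, which starts centriole duplication, had 17.9 and 40.3 CPM with ATRA against 61.9 and 87.5 CPM with ethanol (-1.36 ± 0.43). MELK was at -1.10 ± 0.29. In all 4 both ATRA libraries lay below both ethanol libraries, as they did for 21.7% of all genes tested.

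The chromosomal passenger complex corrects wrong attachments and later controls cytokinesis; AURKB is its kinase, INCENP its scaffold, and survivin (BIRC5) and borealin (CDCA8) place it on the centromere. AURKB had 9.48 and 15.97 CPM with ATRA against 38.2 and 58.2 CPM with ethanol (-1.92 ± 0.38), the lowest fold change of the 58, at 26.4% of ethanol (adjusted p 0.0898, edgeR quasi-likelihood). INCENP had 14.8 and 23.7 CPM with ATRA against 39.6 and 49.997 CPM with ethanol (-1.22 ± 0.33). CDCA8 had 6.71 and 22.1 CPM with ATRA against 31.4 and 41.2 CPM with ethanol (-1.33 ± 0.56), with ATRA 1 far below ATRA 2. BIRC5 was at -1.31 ± 0.38. AURKB was lower by much the same amount within both numbers, with log2 differences of -1.996 and -1.857. Its log2 level minus the mean of the other 57 genes was -1.61 and -1.87 with ATRA and -1.23 and -1.03 with ethanol. These groups do not overlap, but an exact two-sided permutation test of 2 against 2 libraries cannot go below 0.333, the value it gave. AURKB had the lowest fold change of the 58 in these same libraries, so a larger fall than the rest was given by the choice. TOP2A, compared in the same way, stood at 2.54 and 2.92 with ATRA and at 2.68 and 3.32 with ethanol. Its groups overlap (exact two-sided permutation p 0.667).

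In the spindle checkpoint, MAD2L1, BUB1B and BUB3 form the complex that blocks CDC20. TTK (MPS1) is the upstream kinase of the checkpoint, and KNTC1 (ROD) brings MAD proteins to kinetochores. MAD2L1 had 57.3 and 90.6 CPM with ATRA against 149.8 and 168 CPM with ethanol (-1.10 ± 0.30). KNTC1 had 80.3 and 185 CPM with ATRA against 233 and 363 CPM with ethanol (-1.17 ± 0.45). BUB3, which also serves outside mitosis, had 137 and 197 CPM with ATRA against 197 and 214 CPM with ethanol (-0.30 ± 0.27, adjusted p 0.704, edgeR quasi-likelihood). BUB3 was the one gene whose groups overlapped: ATRA 2 and ethanol 1 were within 1 CPM of each other, and with upper quartile scaling in place of TMM the groups came apart. Relative to the mean log2 level of the other 57 genes, BUB3 stood at 2.29 and 1.81 with ATRA and at 1.17 and 0.88 with ethanol. The exact two-sided permutation p was 0.333, the smallest possible. BUB3 had the highest fold change of the 58 in these same libraries, so a smaller fall than the rest was given by the choice. BUB1, BUB1B and TTK were at -1.24, -1.17 and -1.25, with both ATRA libraries below both ethanol libraries (21.7% of all genes tested).

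Kinetochores are built on CENPA, the centromeric histone H3, and grip microtubules through the NDC80 complex of NDC80, NUF2, SPC24 and SPC25. CENPA had 7.04 and 13.5 CPM with ATRA against 27.9 and 28.99 CPM with ethanol (-1.47 ± 0.39). SPC24 had 26.5 and 41.8 CPM with ATRA against 78.3 and 81.1 CPM with ethanol (-1.22 ± 0.30). SPC25 had 4.94 and 7.12 CPM with ATRA against 8.85 and 13.1 CPM with ethanol (-0.86 ± 0.42) and the fewest reads of any member in a library, 73 in ATRA 1. SPC25 thus lay at the weak end of the set while its partners NUF2 and NDC80 were at -1.44 and -1.14. CENPE, a motor that aligns chromosomes, and CENPF, a large protein of the outer kinetochore, were at -1.22 ± 0.39 and -1.38 ± 0.39. All 7 had both ATRA libraries below both ethanol libraries, as did 21.7% of all genes tested. Their adjusted p ran from 0.128 to 0.395 (edgeR quasi-likelihood).

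Anaphase starts when CDC20 activates the anaphase-promoting complex, UBE2C supplies it with ubiquitin, and securin (PTTG1) is destroyed to free separase. CDC20 had 19.6 and 25.3 CPM with ATRA against 47.7 and 58.97 CPM with ethanol (-1.25 ± 0.28). PTTG1 had 25.7 and 51.4 CPM with ATRA against 69.1 and 100.1 CPM with ethanol (-1.13 ± 0.40). UBE2C had 27.2 and 56.4 CPM with ATRA against 71.2 and 110.3 CPM with ethanol (-1.12 ± 0.42). Groups were apart for all 3, most clearly for CDC20, whose difference was nearly the same within both numbers (-1.27 and -1.22). Both ATRA libraries lay below both ethanol libraries in 21.7% of all genes tested.

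The set's 9 kinesins move chromosomes or shape the spindle and midzone. KIF22 (Kid), which pushes chromosome arms, had 58.5 and 73.9 CPM with ATRA against 139.7 and 148 CPM with ethanol (-1.12 ± 0.25). KIF14, a kinesin of the midbody, had 25.7 and 46.9 CPM with ATRA against 80.8 and 109 CPM with ethanol (-1.39 ± 0.36). KIF23 (MKLP1), part of centralspindlin, had 24.6 and 68.8 CPM with ATRA against 86.3 and 121 CPM with ethanol (-1.15 ± 0.50). KIF22 was tight within groups, while KIF23 varied widely between ATRA 1 and ATRA 2. KIF11 (Eg5), which pushes spindle poles apart, was at -1.38 ± 0.41, KIF18A at -1.41 ± 0.47, KIF20B at -1.28 ± 0.38, KIF2C (MCAK) at -1.21 ± 0.52, KIF20A at -1.10 ± 0.30 and KIF4A at -0.95 ± 0.41. All 9 had both ATRA libraries below both ethanol libraries (21.7% of all genes tested). The adjusted p-values of edgeR's quasi-likelihood test ran from 0.107 to 0.343.

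Spindle microtubule proteins included GTSE1, which stabilizes microtubules and restrains p53, with 16.5 and 25.2 CPM with ATRA against 52.2 and 58.1 CPM with ethanol (-1.40 ± 0.30). HMMR (RHAMM) had 28.2 and 46.7 CPM with ATRA against 80.9 and 75.1 CPM with ethanol (-1.06 ± 0.31). DLGAP5 (HURP), a protein of kinetochore fibers, had 35.6 and 83.2 CPM with ATRA against 95.9 and 144 CPM with ethanol (-1.01 ± 0.45). The ATRA libraries were below the ethanol libraries in each, as in 21.7% of all genes tested. The narrowest gap was in DLGAP5, between ATRA 2 and ethanol 1. TPX2, which activates AURKA, was at -1.30 ± 0.40, NUSAP1 at -1.41 ± 0.52, the spindle pole protein ASPM at -1.38 ± 0.50 and CKAP2 at -1.10 ± 0.38.

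For cytokinesis, ANLN (anillin), which links the contractile ring to the membrane, had 36.7 and 92.9 CPM with ATRA against 157 and 179 CPM with ethanol (-1.37 ± 0.45). ECT2, the exchange factor that turns on RhoA at the cell equator, had 56.4 and 108 CPM with ATRA against 137 and 196 CPM with ethanol (-1.02 ± 0.38). PRC1, which bundles midzone microtubules, had 74.3 and 195 CPM with ATRA against 275 and 337 CPM with ethanol (-1.18 ± 0.47). Both ATRA libraries were below both ethanol libraries in all 3 (21.7% of all genes tested), and ATRA 2 was far above ATRA 1 for ANLN and PRC1. The table also holds PRC1-AS1, antisense to PRC1, with 18 and 39 reads with ATRA and 53 and 92 with ethanol; no source used here gives the strand setting of the counting, so reads of the pair cannot be told apart.

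Chromosome structure genes include condensin subunits and topoisomerase. NCAPG, a condensin I subunit, had 43.9 and 86.3 CPM with ATRA against 173 and 181 CPM with ethanol (-1.44 ± 0.36). NCAPD2, another, had 68.5 and 116 CPM with ATRA against 185 and 302 CPM with ethanol (-1.40 ± 0.38). NCAPH, SMC2 and SMC4, the other condensin subunits of the set, were at -1.43, -1.27 and -1.31, so that the 5 condensin genes lay close together. TOP2A, which untangles sister chromatids, had 162 and 419 CPM with ATRA against 549 and 1133 CPM with ethanol (-1.53 ± 0.55). MKI67 (Ki-67), which coats mitotic chromosomes and marks cycling cells, had 62.7 and 168 CPM with ATRA against 225 and 323 CPM with ethanol (-1.25 ± 0.49). Both genes had both ATRA libraries below both ethanol libraries (21.7% of all genes tested). TOP2A differed more between the 2 ethanol libraries than between ATRA 2 and ethanol 1. FOXM1, the transcription factor that drives many genes of the set, had 14.4 and 28.95 CPM with ATRA against 38.03 and 70.8 CPM with ethanol (-1.33 ± 0.46; adjusted p 0.238, edgeR quasi-likelihood), with groups apart and similar differences within both numbers (-1.39 and -1.29).

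**Figure D4:**
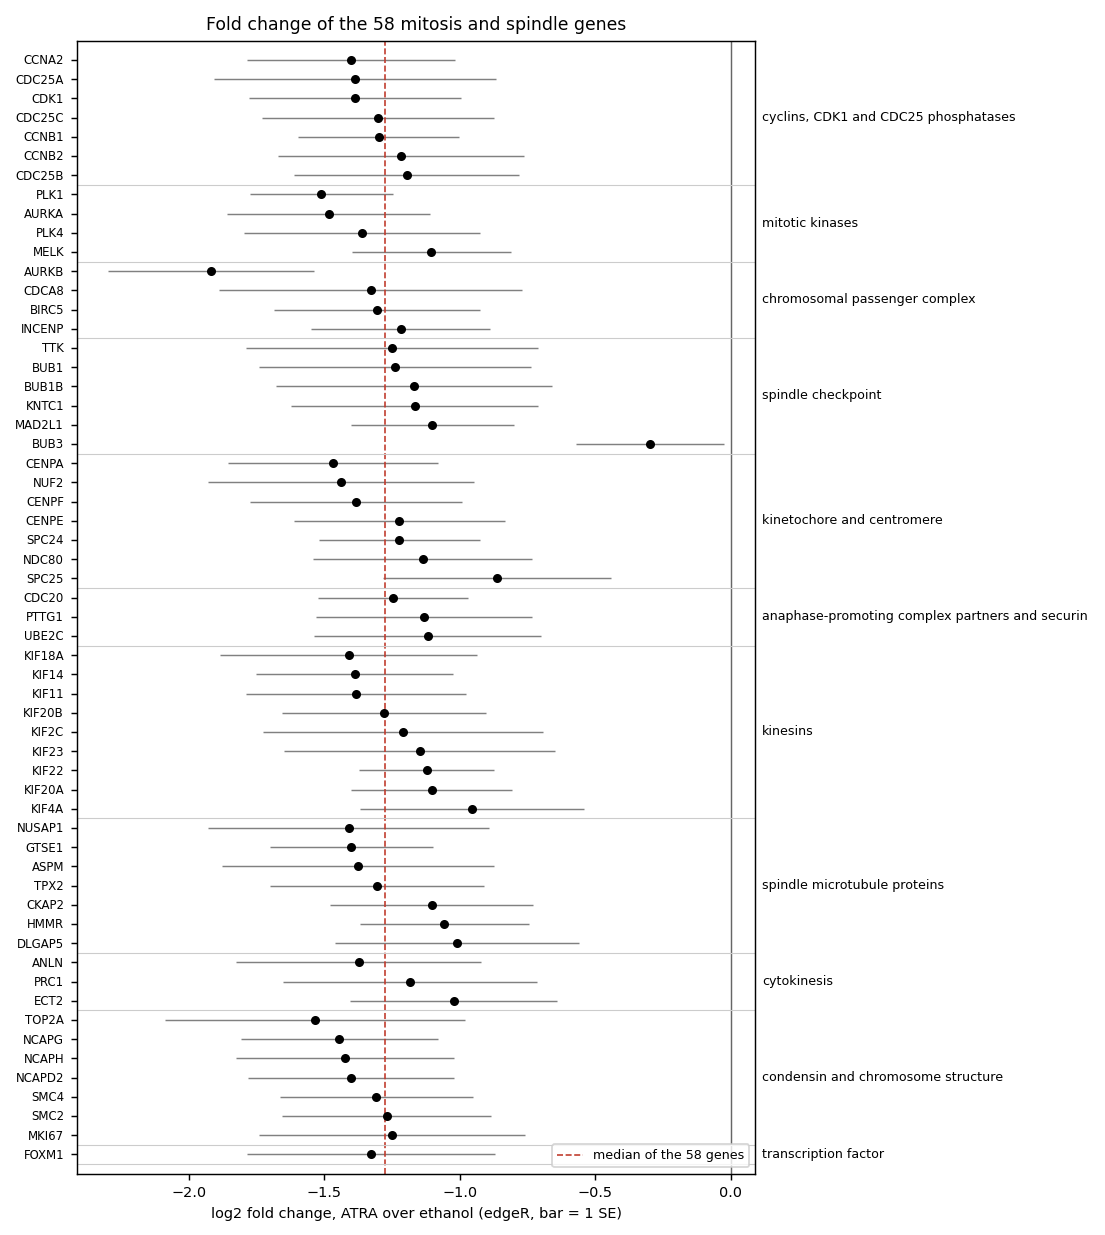
Log2 fold change of ATRA over ethanol for each of the 58 genes (point, bar = 1 SE, edgeR), grouped by role, with 0 and the median of the set (-1.28, dashed) marked. AURKB lies lowest at -1.92 and BUB3 highest at -0.30, and most other points lie between -1.5 and -1.0.

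Levels can be set against each other only per length. Per kilobase of exon (GENCODE 29 exon lengths, which need not be the annotation used in counting), TOP2A was the most abundant of the 58 with ethanol at 131 CPM per kilobase, followed by CCNB1 at 88.9 and NUSAP1 at 79.0, and CDC25C and SPC25 were the least, at 5.08 and 5.96. With ATRA the same quantity was 45.1 for TOP2A, 36.1 for CCNB1, 29.7 for NUSAP1, 2.06 for CDC25C and 3.28 for SPC25.

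Other genes of mitosis also lay lower with ATRA, with a median nearer to 0. Of 120 further genes, in 9 lists chosen by role, 85 had both ATRA libraries below both ethanol libraries and 4 above (21.7% and 23.8% of all genes tested), and 0 were called with edgeR quasi-likelihood, while 48 were lower and 1 higher at an unadjusted p under 0.05 (6.49% of all genes were lower). Their median log2 fold change was -0.75. The mean log2 level of the 58 genes minus that of the 120 was 0.09 and 0.57 with ATRA and 0.83 and 1.00 with ethanol, with no overlap (exact two-sided permutation p 0.333, the smallest possible). The lists were unlike. Mitotic entry and kinase control genes had a median of -1.21 over 11, with CKS2, a CDK1-binding protein, at -1.21 ± 0.25 and PKMYT1, a kinase that inhibits CDK1, at -1.46 ± 0.30. Further cytokinesis genes (5) were at -1.08, with ARHGAP11A and CEP55 at -1.29 ± 0.42 and -1.16 ± 0.56, and further condensin subunits (3) at -0.98, with NCAPD3 and NCAPH2 at -1.47 ± 0.26 and -0.69 ± 0.24. Further kinetochore genes (32) had a median of -0.87, with CENPM at -1.60 ± 0.35 and CENPK at -1.22 ± 0.30. Further spindle motors and microtubule proteins (19) were at -0.82, with KIF18B and TACC3 at -1.75 ± 0.27 and -1.13 ± 0.24, and CLASP2, singled out after its values were seen, was higher with ATRA at 1.05 ± 0.28. Centrosome and centriole genes (12) had a median of -0.75. Among these CEP152, a scaffold for PLK4, had 20.5 and 27.6 CPM with ATRA against 119.8 and 85.2 CPM with ethanol (-2.09 ± 0.31, adjusted p 0.0528, edgeR quasi-likelihood) and TUBG1 was at -0.83 ± 0.27.

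The medians of 3 lists lay nearest to 0. MuvB genes and B-MYB (6) had a median of -0.55, with MYBL2 at -1.05 ± 0.43 and LIN9 at -0.74 ± 0.29. Cohesin and separase genes (15) were at -0.53, with ESCO2 and CDCA5, both needed to hold sister chromatids together, at -1.49 ± 0.29 and -1.49 ± 0.33. Core subunits of the anaphase-promoting complex and its partners (17) had a median of -0.23, with UBE2S and FBXO5 (EMI1) at -0.85 ± 0.24 and -1.07 ± 0.47. Of the 17, 9 had both ATRA libraries below both ethanol libraries and 2 had both above (21.7% and 23.8% of all genes tested).

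S phase genes lay at values near those of the mitotic set. Of 35 replication genes, 33 had both ATRA libraries below both ethanol libraries (21.7% of all genes tested) and 30 were lower at an unadjusted p under 0.05 (6.49% of all genes), with 0 called (edgeR quasi-likelihood) and a median log2 fold change of -1.17. FEN1, which removes RNA primers, had 23.8 and 28.5 CPM with ATRA against 69.5 and 63.8 CPM with ethanol and CHAF1A, a histone chaperone, had 28.8 and 41.8 CPM with ATRA against 89.2 and 90.7 CPM with ethanol. The mean log2 level of the mitotic genes minus that of the S phase genes was 0.02 and 0.26 with ATRA and 0.19 and 0.39 with ethanol. These groups overlap (exact two-sided permutation p 0.667, where 0.333 is the smallest possible). Within the numbers this quantity was lower with ATRA by similar amounts, with differences of -0.16 for the first libraries and -0.14 for the second. Among 10 tested CDK inhibitor and p53 genes, 1 was higher at an unadjusted p under 0.05, as were 1783 of the 18900 genes tested. Of the 10, 0 were called (edgeR quasi-likelihood), and their median log2 fold change was 0.14. CDKN2B, which encodes the CDK4 and CDK6 inhibitor p15, had 15.9 and 11.3 CPM with ATRA against 3.16 and 4.66 CPM with ethanol (1.79 ± 0.42, adjusted p 0.120, edgeR quasi-likelihood), with the groups apart. BTG2, an antiproliferative gene, was at 0.62 ± 0.41.

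**Figure D5:**
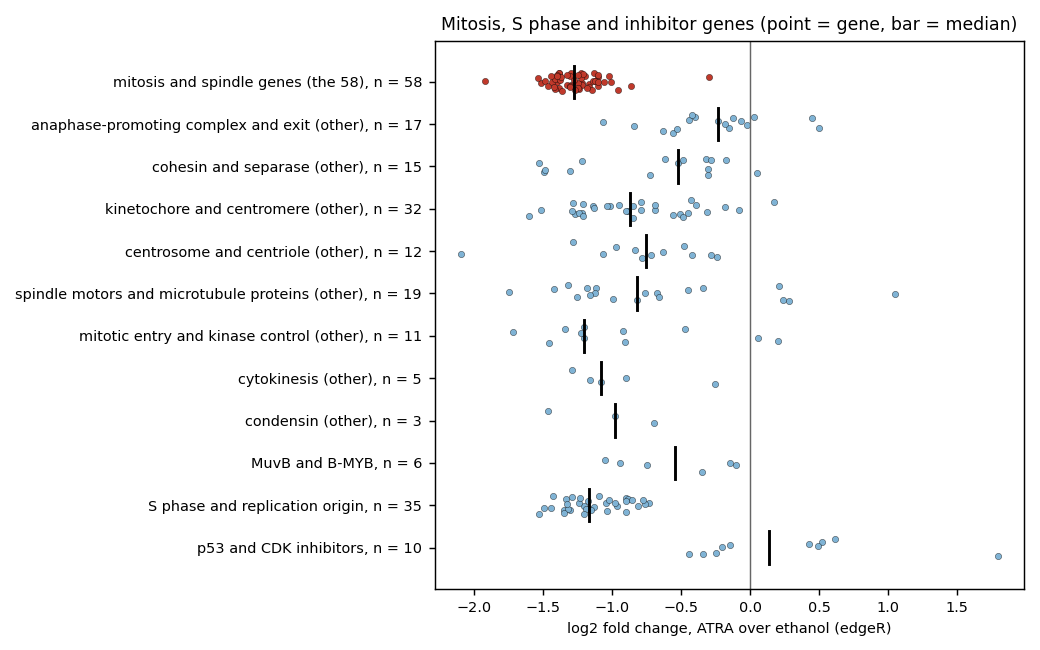
Log2 fold change of ATRA over ethanol (edgeR) for the 58 mitotic genes (red) and for genes of 11 other lists (blue), 1 point per gene with the median as a bar. The 58 genes and the S phase genes form narrow groups at medians of -1.28 and -1.17, while the anaphase-promoting complex list reaches above 0 and the inhibitor list straddles it.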

How the data were processed

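RNA of SK-N-BE(2)C cells was measured by sequencing after ribosomal RNA depletion with a directional library kit, per the labels' protocols. The authors deposited 1 table of raw counts, with a row for each gene symbol; STAR 2.5.2b, featureCounts 1.5.1 and build hg19 are named in the submitters' processing notes. The sources used here do not give the annotation, the strand setting or the treatment of shared reads.

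Genes passed filterByExpr (minimum count 10), counts were scaled by TMM, and edgeR 4.0.16 in R 4.3.3 was fitted over all 18900 genes with the treatment as the sole term, with 2 residual degrees of freedom. P-values came from the robust quasi-likelihood F test, two-sided, with Benjamini-Hochberg adjustment and a threshold of 0.05. SE was obtained from F and the log2 fold change (its absolute value over sqrt F). CPM use TMM-scaled library sizes; log2 CPM used a prior count of 2. DESeq2 1.42.0 and limma 3.58.1 (voom) were alternatives.

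The 58 genes and all lists were chosen with earlier results of these data known. Values in every library are given for the 2 genes with the smallest and the 1 with the largest unadjusted p in each role of 3 or more genes, and for FOXM1, MKI67, TOP2A, CCNB1 and CDK1. From each other list of mitosis, S phase or inhibitor genes the 2 with the smallest p are named. Single neuroblastoma markers are not reported here. PECAM1 was not analysed here. Promoters are from RefSeq, GRCh38.p14.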

Additional observations from a re-analysis of the deposited data

How the results depend on the processing

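Every alternative kept the median of the 58 genes below 0 and called none of them higher with ATRA. With DESeq2 size factors, upper quartile factors, library size alone, or mitochondrially encoded genes left out, 0 of the 58 were called, as in the main result, and the median stayed between -1.27 and -1.30. The number of calls moved with the test and the filter. Keeping every gene with at least 1 count gave 54 calls in the set (1821 over all genes, of which those lower with ATRA were 1.86% of the genes tested), DESeq2 gave 29 (1380), and limma-voom gave 0 (50). The cause was not tested. Fits without 1 library called 1 to 54 genes of the set and 870 to 1442 of all genes, with medians from -1.90 to -0.89, and the summed level with ATRA was then 27.1% to 55.5% of ethanol. With 1 library left in a group, that library is assumed to vary like the other group.

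The titles number 1 library of each group 2, and the unnumbered one was taken as 1. Libraries of the same number deviated together (r = 0.63 across genes tested, which are not independent replicates), but 2 pairs do not establish a pairing. With the replicate block 57 of the 58 genes were called lower, all but BUB3 (4098 over all genes, with 9.38% of those tested lower). DESeq2 with the replicate block, added after the data were seen, called 56 (2727, with 7.03% of the genes tested lower), all but BUB3 and SPC25.

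Each of the 58 genes had at least 73 reads in every library.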

Other observations

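Near-identical copies of the mitotic genes took few reads. KIF4B, a retrocopy of KIF4A, had 2 reads over all libraries (in ATRA 2), PTTG2 had 0 in every library and PTTG3P at most 5. UBE2CP1, a pseudogene of UBE2C, had 32 and 15 reads with ATRA and 18 and 6 with ethanol (adjusted p 0.739, edgeR quasi-likelihood).

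Across the 58 genes, which share the same 4 libraries, the log2 difference between ATRA 1 and ethanol 1 and that between ATRA 2 and ethanol 2 had a Pearson correlation of 0.34, given as a description. The difference was larger in the first pair for 57 of the 58 genes, with SPC25 the exception (-0.82 and -0.87). No share over all genes is given for this count, so it may be a feature of the libraries.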
